A study of Mus musculus with 12 samples.

Results

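Heat shock proteins and chaperones were followed across cells of infected mouse lungs by their gene symbols. Members were the genes measured under a single symbol that starts with Hspa, Hspb, Hspd, Hspe, Hsph, Hsp90 or Dnaj, with Hspa5 left out. This gave 71 of the 18193 genes in the data, covered by 171 probe sets, and 26 of the 71 rest on 1 probe set. By family there were 10 HSP70 genes, 3 HSP110 genes, 2 HSP90 genes and 2 genes of the mitochondrial chaperonin. Another 8, Hspb11 among them, were grouped by symbol as small heat shock proteins. A further 2, Hspbap1 and Hspbp1, entered by their symbols and were placed in none of these families, and 44 belong to the J-domain co-chaperones, with 4 DNAJA, 13 DNAJB and 27 DNAJC genes. Every member was tested and no filter on low values was applied.

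Cells carrying CD11c, an integrin of dendritic cells and lung macrophages, had been collected with magnetic beads from collagenase-treated lungs, at a purity above 90% per the labels. All mice had received Pneumocystis, a fungus that infects lungs, into the trachea. There were 4 groups of 3 mice with 1 array per mouse: IFNAR-/- mice at day 14, wildtype mice at day 14, IFNAR-/- mice at day 7 and wildtype mice at day 7 after infection. IFNAR-/- mice lack the type I interferon receptor in all their cells, and the labels give no uninfected group and no age, sex or strain. The study asked whether type I interferon signalling begins in these cells after infection and bears on the inflammation of early clearance.

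Chaperones help other proteins reach or keep their folded form. HSP70 proteins bind and release unfolded stretches by hydrolysing ATP. J-domain proteins bring them their substrates and start the hydrolysis, and HSP110 proteins exchange the nucleotide afterwards. HSP90 proteins act later on receptors and kinases, small heat shock proteins hold unfolding proteins without ATP, and HSP60 with HSP10 forms a folding chamber in mitochondria. Some of these genes are always on, while others are switched on within minutes by heat, oxidative stress or tissue handling through heat shock factor 1, which binds repeated nGAAn units. Since lungs had been digested with enzymes at body heat and sorted before lysis, the spread between mice of a group stands beside each result.

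Promoters of 58 of the 71 members were found in RefSeq sequences of build GRCm38.p6, each window running from 250 bases before the gene's start to 50 after it. Pairs of facing nGAAn units were searched as GAANNTTC and as TTCNNGAA, each of which is its own reverse complement. GAANNTTC occurred in 14 members, or 24.1%, against 9.04% of all 27025 genes with a window. TTCNNGAA occurred in 6 members, or 10.3%, against 9.60% of all genes. A 3-unit run, in which both pairs occur and share a unit, was searched in either phase and on both strands. It occurred in Dnajb6, Hspd1, Hspe1 and Hsph1, or 6.90% of matched members, against 0.662% of all genes. Hspd1 and Hspe1 share their run, since an Hspd1 window at chr1:55087883-55088182 on the minus strand overlaps the Hspe1 window. The same stretch thus counts for both genes in each of these searches. The other Hspd1 window holds no match. Such a match describes letters and not a site in use. The windows shown next belong to the pair of genes that varied most, to their neighbour that hardly varied, and to a member of each of the HSP110 and chaperonin families with a 3-unit run. Capitals mark every match to GAANNTTC or TTCNNGAA. They lie at chr17:34972107-34972406 on the minus strand for Hspa1a, at chr17:34959189-34959488 on the minus strand for Hspa1b, at chr17:34972453-34972752 on the plus strand for Hspa1l, at chr5:149636287-149636586 on the minus strand for Hsph1 and at chr1:55087898-55088197 on the plus strand for Hspe1.
Hspa1a: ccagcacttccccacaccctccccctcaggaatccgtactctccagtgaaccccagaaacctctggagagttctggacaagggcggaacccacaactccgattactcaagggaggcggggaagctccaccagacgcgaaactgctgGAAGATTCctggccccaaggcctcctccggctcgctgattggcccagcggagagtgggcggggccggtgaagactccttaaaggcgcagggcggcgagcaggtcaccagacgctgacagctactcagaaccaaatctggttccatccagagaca
Hspa1b: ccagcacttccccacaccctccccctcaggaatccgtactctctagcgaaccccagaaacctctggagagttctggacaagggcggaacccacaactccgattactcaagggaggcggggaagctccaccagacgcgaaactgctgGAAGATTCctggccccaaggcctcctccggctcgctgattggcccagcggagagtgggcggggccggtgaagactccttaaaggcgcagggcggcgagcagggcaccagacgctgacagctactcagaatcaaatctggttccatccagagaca
Hspa1l: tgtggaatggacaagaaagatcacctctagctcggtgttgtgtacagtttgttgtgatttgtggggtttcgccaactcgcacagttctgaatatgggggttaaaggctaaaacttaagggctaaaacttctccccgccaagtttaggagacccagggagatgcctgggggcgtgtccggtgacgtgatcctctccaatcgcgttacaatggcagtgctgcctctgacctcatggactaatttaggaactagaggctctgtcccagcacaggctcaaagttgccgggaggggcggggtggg
Hsph1: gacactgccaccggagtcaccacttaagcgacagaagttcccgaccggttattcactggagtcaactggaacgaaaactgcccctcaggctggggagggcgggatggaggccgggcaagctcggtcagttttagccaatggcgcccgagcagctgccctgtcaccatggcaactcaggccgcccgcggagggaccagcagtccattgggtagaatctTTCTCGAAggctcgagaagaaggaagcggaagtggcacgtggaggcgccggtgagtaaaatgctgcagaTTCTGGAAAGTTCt
Hspe1: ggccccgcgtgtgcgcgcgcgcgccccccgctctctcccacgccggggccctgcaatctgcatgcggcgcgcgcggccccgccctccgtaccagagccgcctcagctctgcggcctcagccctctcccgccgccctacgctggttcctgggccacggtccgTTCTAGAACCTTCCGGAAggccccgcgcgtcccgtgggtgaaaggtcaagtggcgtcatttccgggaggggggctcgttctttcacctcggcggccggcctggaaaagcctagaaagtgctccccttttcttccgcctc
The Hspa1a and Hspa1b windows differ at 4 of 300 bases, an identity of 98.7%. Both hold the pair GAAGATTC, beginning 104 bases before the start. Hspa1l lies beside Hspa1a in the opposite orientation, and its window holds neither pair. In Hspe1 overlapping matches begin 89, 84 and 79 bases before the start, and in Hsph1 they lie on both sides of it. Because Hspa1a and Hspa1b are near-identical genes, their probe sets may each take up transcripts of both, and the genes are reported together.

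Each value is a log2 ratio, a gene on 1 array over that gene's median of the 12 arrays. Genes therefore cannot be ranked by level. For the same reason it could not be read whether a marker was present or absent. In the limma fits a difference is the mean of 1 group minus that of another, given with its standard error (SE) and n = 3 arrays per group, and a call is a Benjamini-Hochberg adjusted p under 0.05 over all 18193 genes. As a check of the labels, Ifnar1 on 1 of its 2 probe sets lay between -0.63 and 0.00 in IFNAR-/- day 14 mice against 0.24 to 0.87 in wildtype day 14 mice, and between -1.41 and -0.39 in IFNAR-/- day 7 mice against -0.02 to 0.63 in wildtype day 7 mice. Its other probe set overlapped between genotypes at both days. Some arrays stood apart. IFNAR-/- day 7 mouse 3 and wildtype day 7 mouse 1 were high in markers of lung epithelium, with medians of 2.39 and 2.42, where the 10 other arrays lay between -0.59 and 0.37. IFNAR-/- day 7 mouse 3 was also the array with low Xist, at -3.98, and high Eif2s3y, a Y-linked gene, at 2.89. IFNAR-/- day 14 mouse 2 had the widest spread over all genes, a log2 interquartile range of 0.556 against 0.169 to 0.342 on the 11 others. The 5' over 3' signal, a log2 mean over the actin and Gapdh control probe sets in which higher values go with more intact RNA, lay between 0.064 and 0.163 in IFNAR-/- day 14 mice and between -0.912 and -0.184 in wildtype day 14 mice. It was -0.52 in IFNAR-/- day 7 mouse 2 and between 0.078 and 0.178 in the 5 other day 7 mice. The poly-A spike-in probe sets had a mean log2 ratio between -1.75 and 0.17 in IFNAR-/- day 14 mice and between -3.48 and -1.94 in wildtype day 14 mice. It was lowest of all in IFNAR-/- day 7 mouse 3, at -3.60, and between 0.57 and 2.15 in the 5 other day 7 mice.

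The spread between mice was set by a few members. The median standard deviation (SD) within groups was 0.205 on the log2 scale for the 71 members, and 0.184 for all genes. It was under 0.25 in 51 members, or 71.8%, against 73.0% of all genes, and over 0.5 in 5 members, or 7.04%, against 4.63% of all genes. These 5 were Hspa1a, Hspa1b, Hspb1, Dnajb1 and Hspa12b. The heat-inducible pair Hspa1a and Hspa1b had SDs of 1.65 each, and only 9 and 10 of the 18193 genes had a larger one. Hspb1, the small heat shock protein of stressed cells, followed at 0.82. The class medians were 0.377 for HSP110, 0.264 for HSP70, 0.229 for DNAJB, 0.225 for DNAJA, 0.174 for DNAJC and 0.151 for small heat shock proteins. The steadiest members were Dnajc1, a J-domain protein of the endoplasmic reticulum membrane, with an SD of 0.082, and Dnajc16 and Dnajc6, each with 0.092. These are SDs of averages over 6, 2 and 4 probe sets, where Hspa1a rests on 1 and Hspa1b on 3. Single probe sets can vary more, as 1 of Dnajc1 held 0.245, 0.716 and 0.218 in IFNAR-/- day 7 mice. Dnajc6, or auxilin, which uncoats clathrin vesicles, held 0.02, 0.07 and -0.12 in IFNAR-/- day 14 mice, 0.23, 0.16 and -0.04 in wildtype day 14 mice, 0.00, 0.01 and -0.05 in IFNAR-/- day 7 mice and -0.09, -0.01 and -0.01 in wildtype day 7 mice. Its groups overlapped at both days.

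**Figure D1:**
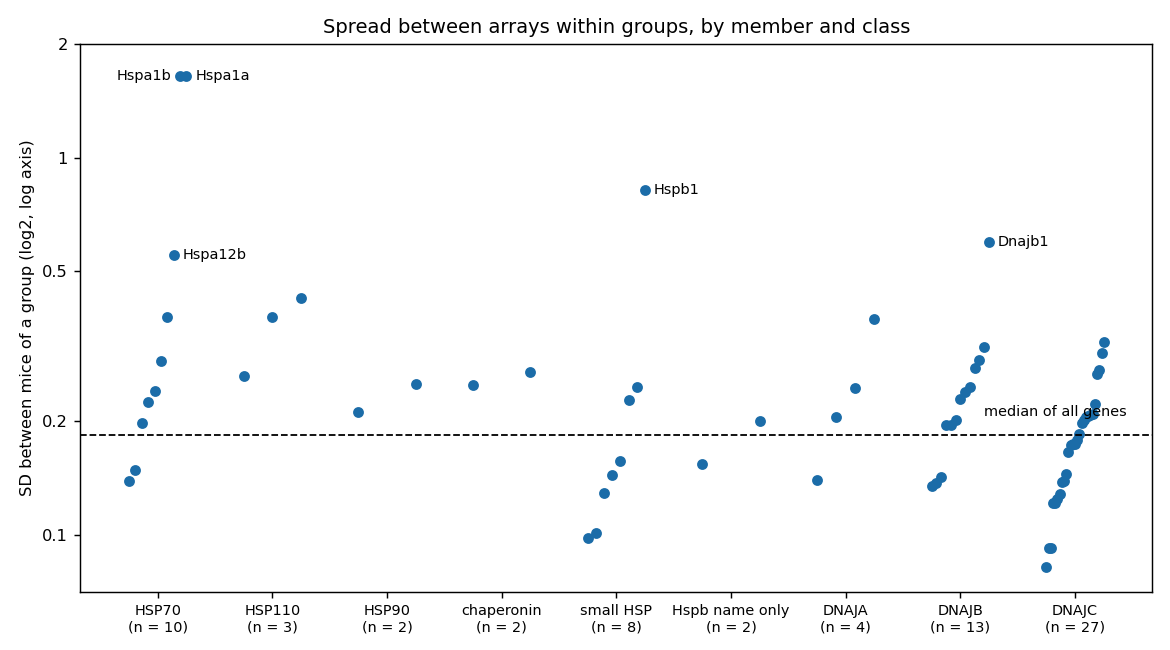
Standard deviation between mice of the same group, pooled over the 4 groups, for each of the 71 members (points, log axis, in log2 units) by family; the dashed line is the median of all genes, 0.184. Hspa1a and Hspa1b stand at 1.65, and all members of the DNAJA, DNAJC, HSP90, HSP110 and chaperonin families lie under 0.5.

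Hspa1a and Hspa1b, which encode the HSP70 made in response to heat, were very low in wildtype mice at day 14 and varied widely elsewhere. Hspa1a held 1.49, -3.45 and 0.08 in IFNAR-/- day 14 mice, -3.40, -4.01 and -3.90 in wildtype day 14 mice, 2.57, 0.13 and -0.10 in IFNAR-/- day 7 mice, and 1.08, 2.61 and -0.26 in wildtype day 7 mice. Hspa1b held 1.40, -3.79 and -0.50 in IFNAR-/- day 14 mice, -3.83, -4.17 and -4.57 in wildtype day 14 mice, 2.65, 0.34 and 0.15 in IFNAR-/- day 7 mice, and 1.15, 2.55 and -0.17 in wildtype day 7 mice. The wildtype day 14 mice lay close together, with SDs of 0.33 for Hspa1a and 0.37 for Hspa1b, below every day 7 mouse of either genotype. IFNAR-/- day 14 mouse 2 lay with them, and the other 2 mice of its group lay far above. The 12 arrays spanned 98.6-fold for Hspa1a and 149-fold for Hspa1b. The single probe set of Hspa1a and the 3 of Hspa1b gave the same order of groups by mean, with wildtype day 14 lowest.

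In wildtype mice Hspa1b fell by 5.37 on the log2 scale at day 14 relative to day 7 (SE 1.14, limma adjusted p = 0.0169), a 41.3-fold lower ratio. Hspa1a fell by 4.91 (SE 1.14, limma adjusted p = 0.0248), a 30.1-fold lower ratio. No day 14 array overlapped a day 7 array in either gene. In IFNAR-/- mice the same differences were -2.01 for Hspa1b and -1.49 for Hspa1a, with limma adjusted p = 0.262 and 0.399, and neither passed. At day 14 the IFNAR-/- minus wildtype difference was 3.23 ± 1.14 for Hspa1b and 3.14 ± 1.14 for Hspa1a (SE), or 9.37-fold and 8.84-fold, with limma adjusted p = 0.131 and 0.140. The arrays of the genotypes overlapped for Hspa1a. For Hspa1b they did not, by a narrow gap between IFNAR-/- mouse 2 at -3.786 and wildtype mouse 1 at -3.828. Of the 3 probe sets of Hspa1b, 1 did not overlap and the others did. Without IFNAR-/- day 14 mouse 2 the differences were 4.64 and 4.55, with limma adjusted p = 0.0230 and 0.0245, so this 1 array decided whether both passed. At day 7 they were -0.13 and -0.28. The change of the genotype difference between the days was 3.36 ± 1.61 for Hspa1b and 3.42 ± 1.61 for Hspa1a (SE), with limma adjusted p = 0.300 and 0.291, and was not called. The fall with time in wildtype mice did not pass for Hspa1a without wildtype day 7 mouse 1 or 2 or any of the 3 wildtype day 14 mice. For Hspa1b it did not pass without wildtype day 7 mouse 1 or 2 or day 14 mouse 2 or 3. Over all alternatives these wildtype differences with time lay between -5.62 and -3.86 for Hspa1a and between -6.04 and -4.45 for Hspa1b. Adjusted for the 5' over 3' signal they were -4.45 for Hspa1b and -4.13 for Hspa1a and no longer passed, at limma adjusted p = 0.234 and 0.273. In the wildtype day 14 group both the 5' over 3' signal and these genes were low. They did not go together on every array. IFNAR-/- day 14 mouse 2 had a signal of 0.064 with Hspa1a at -3.45. Its poly-A spike-in mean was -1.75, against 0.17 and -0.20 in the rest of its group and -3.48 to -1.94 in wildtype day 14 mice. Its 18S ribosomal RNA control probe sets averaged 0.92, against -0.25 and -0.45 there and 0.30 to 2.50 in wildtype day 14 mice. IFNAR-/- day 7 mouse 2 had a signal of -0.52 with Hspa1a at 0.13. The lowest spike-in mean, -3.60, lay in IFNAR-/- day 7 mouse 3, with Hspa1a at -0.10. The part of RNA integrity in the result was not tested beyond this fit.

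**Figure D2:**
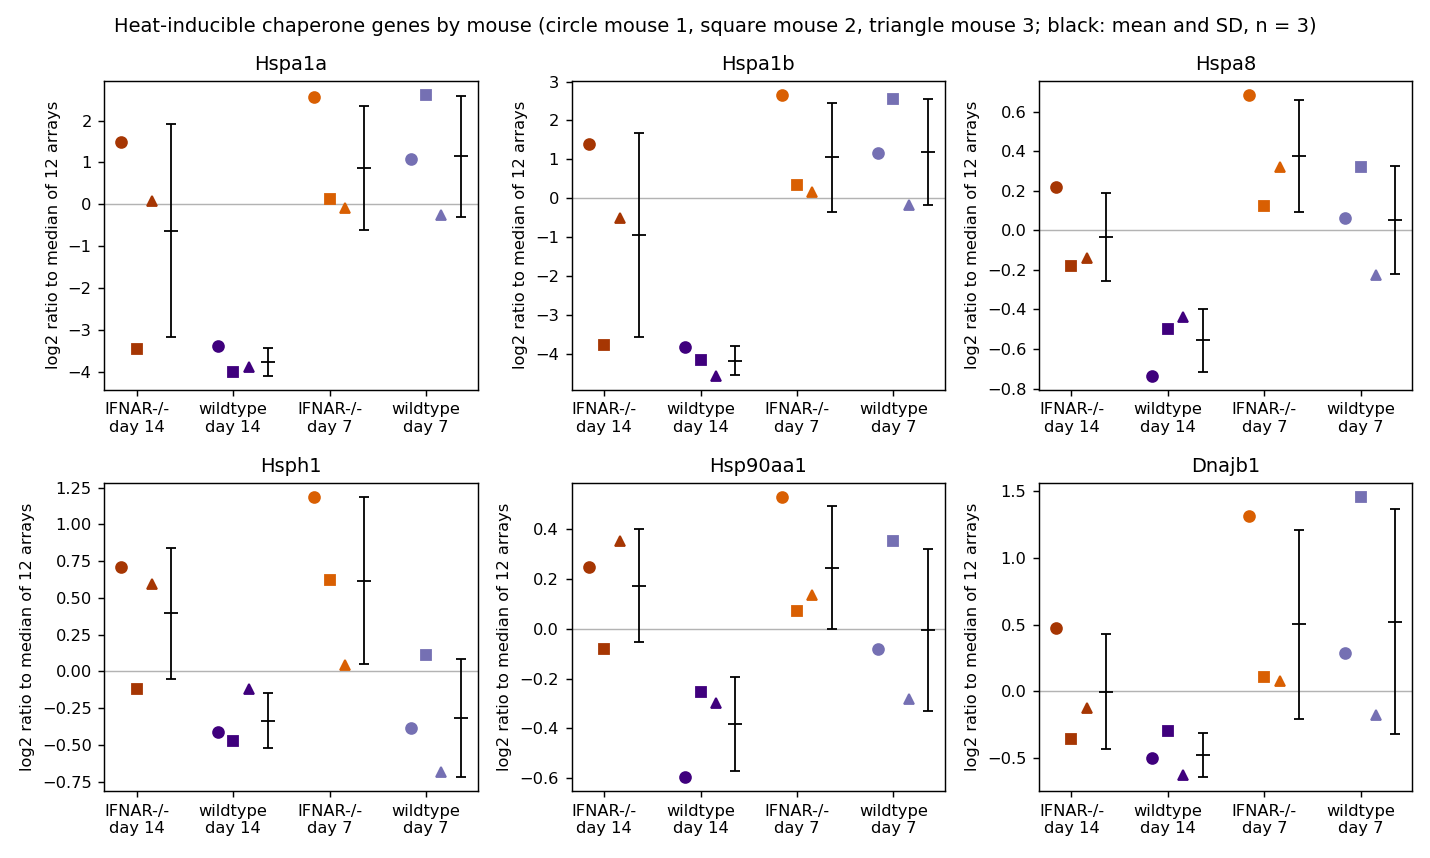
Log2 ratios to the median of the 12 arrays for 6 heat-inducible members, by group and mouse (circle mouse 1, square mouse 2, triangle mouse 3), with the mean and SD of 3 mice in black. Hspa1a and Hspa1b lie between -3.40 and -4.57 in the 3 wildtype day 14 mice and in IFNAR-/- day 14 mouse 2 at -3.45 and -3.79, and the highest day 7 values of most panels belong to IFNAR-/- mouse 1 and wildtype mouse 2.

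Dnajb1, Hsph1, Hspa8, Hsp90aa1 and Dnaja1 were highest within day 7 groups in IFNAR-/- mouse 1 and wildtype mouse 2, over smaller ranges. Dnajb1, the inducible J-domain partner of HSP70, held 0.47, -0.36 and -0.12 in IFNAR-/- day 14 mice, -0.50, -0.30 and -0.63 in wildtype day 14 mice, 1.31, 0.11 and 0.08 in IFNAR-/- day 7 mice and 0.28, 1.46 and -0.18 in wildtype day 7 mice. Hsph1, an HSP110 protein, held 0.71, -0.12 and 0.59 in IFNAR-/- day 14 mice, -0.42, -0.47 and -0.12 in wildtype day 14 mice, 1.18, 0.62 and 0.04 in IFNAR-/- day 7 mice and -0.38, 0.11 and -0.68 in wildtype day 7 mice. Wildtype day 7 mouse 2 lay below IFNAR-/- day 14 mice 1 and 3 for Hsph1. In all 12 arrays the ranges were 2.09 for Dnajb1 and 1.87 for Hsph1 on the log2 scale.

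Hspa8, the HSP70 that cells make all the time, held 0.22, -0.18 and -0.14 in IFNAR-/- day 14 mice, -0.74, -0.50 and -0.44 in wildtype day 14 mice, 0.68, 0.12 and 0.32 in IFNAR-/- day 7 mice and 0.06, 0.32 and -0.23 in wildtype day 7 mice. Hsp90aa1, the inducible HSP90 of the cytosol, held 0.25, -0.08 and 0.35 in IFNAR-/- day 14 mice, -0.60, -0.25 and -0.30 in wildtype day 14 mice, 0.53, 0.07 and 0.14 in IFNAR-/- day 7 mice and -0.08, 0.35 and -0.28 in wildtype day 7 mice. Dnaja1, another J-domain partner of HSP70, held 0.12, -0.91 and -0.02 in IFNAR-/- day 14 mice, -0.25, -0.25 and -0.30 in wildtype day 14 mice, 0.78, 0.37 and 0.06 in IFNAR-/- day 7 mice and 0.04, 0.58 and -0.05 in wildtype day 7 mice. Wildtype day 14 mice lay below every IFNAR-/- day 14 mouse for Hspa8 and Hsp90aa1, and for Dnaja1 the genotypes overlapped at both days. None of these 3 genes passed in any comparison. At day 14 the genotype difference was 0.52 ± 0.18 for Hspa8 (SE, limma adjusted p = 0.126) and 0.55 ± 0.19 for Hsp90aa1 (SE, limma adjusted p = 0.119).

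The mitochondrial chaperonin pair had the narrowest ranges over the 12 arrays among the 10 inducible members, 0.78 for Hspd1 and 0.77 for Hspe1. Hspd1, or HSP60, held 0.12, -0.31 and 0.28 in IFNAR-/- day 14 mice, -0.24, 0.00 and 0.31 in wildtype day 14 mice, 0.40, 0.47 and -0.02 in IFNAR-/- day 7 mice and -0.06, -0.26 and -0.06 in wildtype day 7 mice. Hspe1, or HSP10, held 0.06, -0.42 and 0.31 in IFNAR-/- day 14 mice, 0.35, -0.13 and 0.21 in wildtype day 14 mice, 0.07, 0.25 and -0.31 in IFNAR-/- day 7 mice and -0.38, -0.22 and -0.27 in wildtype day 7 mice. Neither gene passed in any comparison, although the promoter stretch they share holds the 3-unit run. Hspa1l, the neighbour of Hspa1a, spanned 0.60 over the 12 arrays where Hspa1a spanned 6.62.

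A list of 10 inducible members was read mouse by mouse: Hspa1a, Hspa1b, Hspa8, Hsph1, Hsp90aa1, Dnajb1, Dnaja1, Hspd1, Hspe1 and Hspb1. The list held Hsp90ab1 too, which was not analysed here. Within the IFNAR-/- day 7 group, mouse 1 was highest in 7 of the 10, where 23.2% of all genes had their highest value in that mouse. Within wildtype day 7, mouse 2 was highest in 8 of the 10 (33.4% of all genes) and mouse 3 lowest in 8 (34.2%). Within IFNAR-/- day 14, mouse 1 was highest in 6 (31.0%) and mouse 2 lowest in 9 (43.0%). IFNAR-/- day 14 mouse 2 was also the lowest of its group in 43 of all 71 members. In wildtype day 14 mice the highest value fell to mouse 1 in 5 genes, mouse 2 in 2 and mouse 3 in 3. The median over the 10 genes was 0.23, -0.33 and 0.03 in IFNAR-/- day 14 mice, -0.46, -0.39 and -0.37 in wildtype day 14 mice, 0.98, 0.30 and 0.07 in IFNAR-/- day 7 mice and 0.05, 0.47 and -0.25 in wildtype day 7 mice. The range over 3 mice was narrowest in wildtype day 14.

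For the mean over both days all 10 inducible members had a difference above 0, with a median of 0.41 where the median of all genes was 0.00, but none of the 10 passed, where 4.19% of all genes did, 1.70% higher and 2.49% lower. The lowest limma adjusted p among them was 0.0543, for Hsph1 at 0.83 ± 0.21 (SE). In wildtype mice 2 of the 10 were called lower at day 14, as were 4.10% of all genes, with 8 differences below 0 and a median of -0.53. In IFNAR-/- mice 1 was called lower at day 14, as were 8.24% of all genes, with all 10 differences below 0 and a median of -0.46. The median of all genes was 0.02 in both time comparisons. The genotype and time comparisons share arrays, so these counts are not independent of each other.

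Immediate-early genes, transcription factors and regulators that tissue digestion is known to switch on, were counted beside them, since handling can induce both groups. All 16 of that list were measured. At day 14 7 were called higher in IFNAR-/- than in wildtype mice and 0 lower, with a median of 0.80, where 1.75% and 3.29% of all genes were, and at day 7 0 were called in either direction by limma and 6 had an unadjusted p under 0.05. With time 1 was called higher and 2 lower in IFNAR-/- mice, against 4.08% and 8.24% of all genes. In wildtype mice 0 were called higher and 11 lower at day 14, with a median of -0.85, against 3.88% and 4.10% of all genes. Their median was 0.05, -0.34 and 0.14 in IFNAR-/- day 14 mice, -0.60, -0.60 and -0.77 in wildtype day 14 mice, 0.15, 0.00 and 0.44 in IFNAR-/- day 7 mice and 0.43, 0.11 and -0.06 in wildtype day 7 mice. They were lowest in the same wildtype day 14 mice as Hspa1a and Hspa1b, and lowest within IFNAR-/- day 14 in the same mouse 2. At day 7 the mouse highest for the inducible chaperones was not the mouse highest for the immediate-early genes in either genotype. The part of handling in the chaperone values was not tested.

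Hspb1, a small heat shock protein also called HSP25 in mice, was high at day 7 in IFNAR-/- mice. It held -0.20, -0.15 and -0.03 in IFNAR-/- day 14 mice, -0.36, -0.50 and -0.51 in wildtype day 14 mice, 1.57, 1.52 and 3.88 in IFNAR-/- day 7 mice, and 1.48, 0.63 and -0.37 in wildtype day 7 mice. In IFNAR-/- mice it fell by 2.45 at day 14 relative to day 7 (SE 0.57, limma adjusted p = 0.0191), a 5.46-fold lower ratio. The arrays did not overlap. At day 7 the genotype difference of 1.74 ± 0.57 (SE) did not pass, at limma adjusted p = 0.157, although each IFNAR-/- mouse lay above every wildtype mouse. The highest day 7 value of each genotype lay in an array that was high in lung tissue markers. Without IFNAR-/- day 7 mouse 3 the time difference was -1.67 with limma adjusted p = 0.0262, and without IFNAR-/- day 14 mouse 2 it was -2.44 and did not pass, at limma adjusted p = 0.0550. The time call was lost in 3 of 23 alternative fits. The others were the fit of only the arrays compared and that without IFNAR-/- day 7 mouse 3 and IFNAR-/- day 14 mouse 2 together. Without IFNAR-/- day 7 mouse 3 and wildtype day 7 mouse 1 together the day 7 genotype difference was 1.41 and passed, at limma adjusted p = 0.0334. That fit leaves out the highest day 7 value of each genotype, and it was the only 1 of 23 alternatives in which this difference passed. IFNAR-/- day 7 mice 1 and 2, at 1.57 and 1.52 for Hspb1, had epithelial medians of 0.08 and -0.06 and endothelial medians of 0.11 and 0.63. Single markers varied widely there. The epithelial list ran from -1.73 to 2.06 in mouse 1 and from -1.73 to 1.18 in mouse 2, with Scgb1a1 and Scgb3a2 the highest in both. The endothelial list ran from -0.61 to 1.05 and from -0.51 to 1.35, with Ramp2 the highest. The part of lung tissue cells in the Hspb1 values was not tested.

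Some other members, chosen after their values were seen, were also high in arrays high in lung tissue markers. Hspa12b, a distant HSP70 relative known from endothelial cells, held -0.33, 0.58 and -0.07 in IFNAR-/- day 14 mice, -0.26, 0.07 and -0.29 in wildtype day 14 mice, -0.27, 0.04 and 1.31 in IFNAR-/- day 7 mice and 0.82, 0.22 and -0.18 in wildtype day 7 mice. Its 2 highest values lay in the arrays whose endothelial medians were highest, 2.44 in IFNAR-/- day 7 mouse 3 and 1.93 in wildtype day 7 mouse 1. Its next highest, 0.58 in IFNAR-/- day 14 mouse 2, lay in an array with an endothelial median of -0.40. Dnaja4, a J-domain protein, lay at 0.84 and 0.29 in those 2 arrays, and between -0.22 and 0.08 in the 10 others. In bulk samples fewer cells of a type and less RNA per cell cannot be told apart, and the part of lung tissue cells in these values was not tested. Neither gene passed in any comparison.

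**Figure D3:**
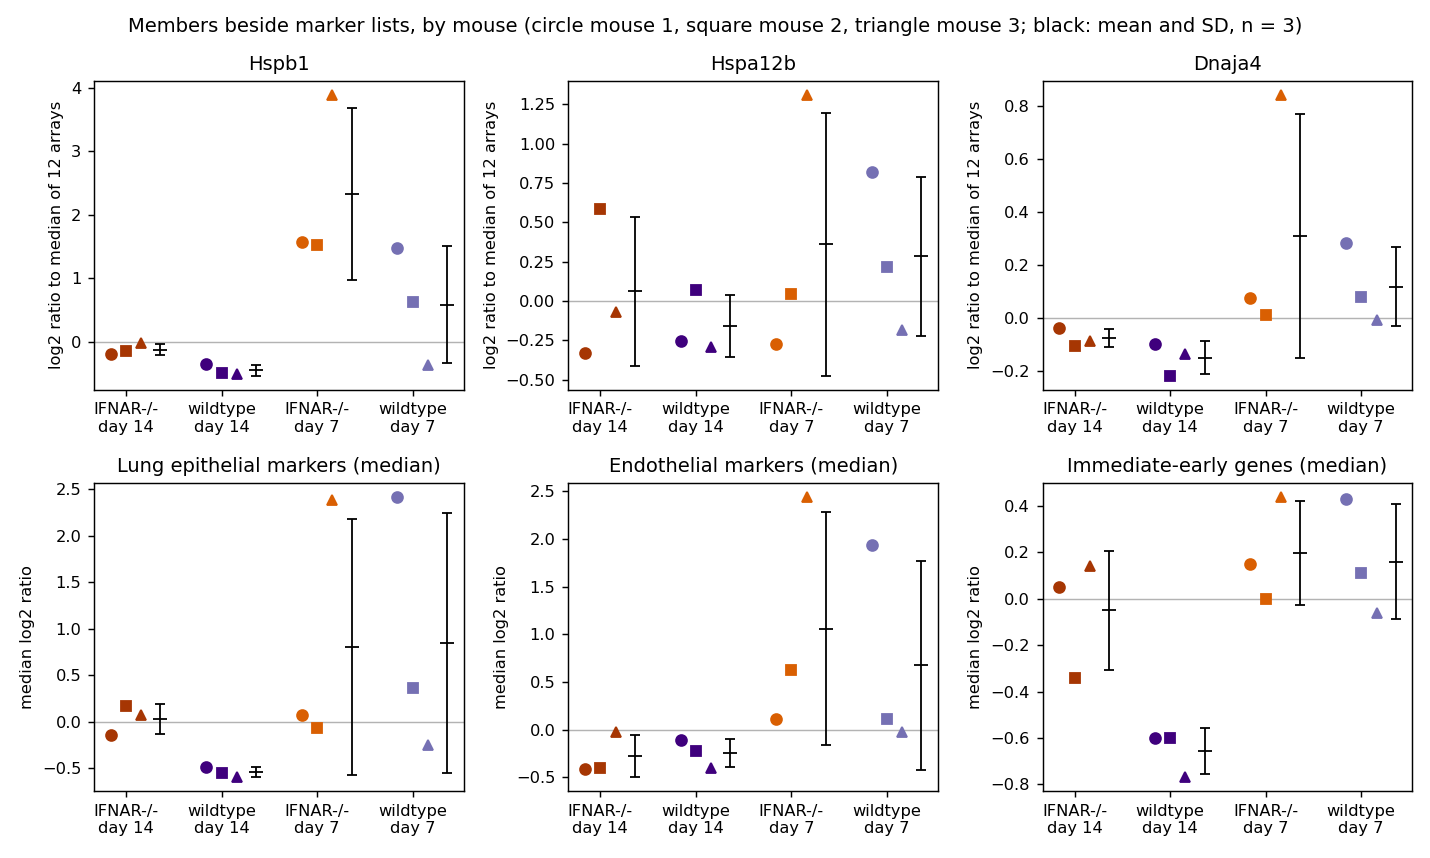
Log2 ratios of Hspb1, Hspa12b and Dnaja4 (top) and median log2 ratios of the lung epithelial, endothelial and immediate-early lists (bottom), by group and mouse, with the mean and SD of 3 mice in black. IFNAR-/- day 7 mouse 3 is highest in the 3 upper panels, and in the endothelial panel at 2.44; wildtype day 14 mice are lowest for the immediate-early genes, at -0.60 to -0.77.

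Between day 14 and day 7 more members were called lower than higher in both genotypes. In wildtype mice 10 of the 71 members passed, or 14.1%, where 7.98% of all genes did. Of these 3 were higher at day 14 and 7 lower, against 3.88% and 4.10% of all genes. In IFNAR-/- mice 10 members passed as well, or 14.1%, where 12.3% of all genes did, with 1 higher and 9 lower, against 4.08% and 8.24% of all genes. The median difference of all 71 members was -0.00 in wildtype and -0.08 in IFNAR-/- mice, with 35 above 0 and 36 below in wildtype mice. Arrays of day 14 and day 7 did not overlap in 30 members in wildtype mice, 10 of them higher and 20 lower at day 14, against 16.0% and 15.2% of all genes. In IFNAR-/- mice 22 members did not overlap, 6 higher and 16 lower, against 16.2% and 17.8% of all genes. Markers of alveolar macrophages, of which 8 of 10 were measured, moved between the days too. With time 3 of the 8 were called lower in IFNAR-/- mice, with a median difference of -1.40, and 5 in wildtype mice, with a median difference of -1.97. Their median ratio lay between -0.61 and 0.11 in IFNAR-/- day 14 mice, between -2.20 and -0.93 in wildtype day 14 mice, between 0.92 and 1.11 in IFNAR-/- day 7 mice and between -0.06 and 0.80 in wildtype day 7 mice. At day 14 3 of the 8 were called higher in IFNAR-/- than in wildtype mice, as were 1.75% of all genes. Other lists moved differently. Of 9 measured dendritic cell markers, 5 were called higher and 0 lower with time in IFNAR-/- mice, and 1 higher and 2 lower in wildtype mice. At day 7 6 of these 9 were called lower in IFNAR-/- than in wildtype mice, as were 1.35% of all genes. Of 6 measured T cell markers, 3 were called higher with time in IFNAR-/- mice and 0 in wildtype mice. The part of the cell mixture in the chaperone values was not tested.

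Called in both genotypes were 3 members, Hspa2, Hspa12a and Dnajc14, of 17 called in either. Hspa2, an HSP70 best known from male germ cells, held -0.67, -0.19 and -0.97 in IFNAR-/- day 14 mice, -0.66, -0.38 and -0.61 in wildtype day 14 mice, 0.47, 0.49 and 0.16 in IFNAR-/- day 7 mice and 0.24, 0.81 and 0.16 in wildtype day 7 mice. For Hspa2 every day 14 mouse lay below every day 7 mouse. The differences were -0.98 ± 0.21 in IFNAR-/- mice and -0.96 ± 0.21 in wildtype mice (SE), at limma adjusted p = 0.0139 and 0.0209. Hspa12a, an atypical HSP70 relative, held -0.03, -0.07 and -0.18 in IFNAR-/- day 14 mice, -0.75, -0.47 and -0.60 in wildtype day 14 mice, 0.78, 0.25 and 0.80 in IFNAR-/- day 7 mice and 0.05, -0.10 and 0.45 in wildtype day 7 mice. Day 14 mice lay below day 7 mice in each genotype, and it fell by 0.70 in IFNAR-/- mice and by 0.74 in wildtype mice. Of its 4 probe sets, 1 kept the days apart in both genotypes. It held -0.952 to 0.045 at day 14 against 1.017 to 1.292 at day 7 in IFNAR-/- mice. Another kept them apart in wildtype mice alone, and the others overlapped in both genotypes. Dnajc14, a J-domain protein of the endoplasmic reticulum membrane that helps receptors leave it, lay between -1.11 and -0.13 in IFNAR-/- day 14 mice, between -0.65 and -0.49 in wildtype day 14 mice, and between 0.11 and 0.35 in all day 7 mice. Its differences were -0.76 ± 0.20 and -0.82 ± 0.20 (SE).

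By family, the members called with time in IFNAR-/- mice included 3 of 13 DNAJB genes, all lower, and 3 of 27 DNAJC genes, 1 higher and 2 lower. Dnajb2, a J-domain protein that binds ubiquitin chains and is abundant in neurons, held 0.07, -0.55 and -0.50 in IFNAR-/- day 14 mice, -0.16, -0.21 and -0.24 in wildtype day 14 mice, 0.75, 1.03 and 0.75 in IFNAR-/- day 7 mice and 0.18, 0.12 and -0.08 in wildtype day 7 mice. The IFNAR-/- day 7 mice lay above all 9 others. In IFNAR-/- mice Dnajb2 fell by 1.17 (SE 0.16, limma adjusted p = 0.00154), and this call passed in every alternative fit. Hspa4l, an HSP110 protein, held 0.18, -1.27 and -0.35 in IFNAR-/- day 14 mice, -0.87, -0.91 and -0.92 in wildtype day 14 mice, 1.01, 0.77 and 0.76 in IFNAR-/- day 7 mice and 0.13, 0.10 and -0.05 in wildtype day 7 mice. It fell by 1.33 in IFNAR-/- mice (SE 0.27, limma adjusted p = 0.0103). In wildtype mice its difference was -0.96 ± 0.27 (SE), with limma adjusted p = 0.0549 and no overlap of arrays.

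Dnajb9, a J-domain protein which joins the luminal HSP70 and rises when unfolded proteins build up there, held -0.07, -0.81 and -0.17 in IFNAR-/- day 14 mice, 0.02, -0.25 and -0.15 in wildtype day 14 mice, 0.80, 0.78 and 0.77 in IFNAR-/- day 7 mice and 0.15, -0.04 and 0.65 in wildtype day 7 mice. It fell by 1.14 in IFNAR-/- mice (SE 0.21, limma adjusted p = 0.0059), a call that also passed in every alternative fit, and its wildtype difference was -0.38. Dnajc1 held -0.10, -0.23 and -0.18 in IFNAR-/- day 14 mice, -0.01, -0.13 and 0.12 in wildtype day 14 mice, 0.21, 0.20 and 0.14 in IFNAR-/- day 7 mice and -0.04, -0.07 and 0.08 in wildtype day 7 mice. It fell by 0.35 in IFNAR-/- mice, the smallest of the called differences. Dnajb14, another J-domain protein of that membrane, was called lower in IFNAR-/- mice at -0.67 ± 0.19 (SE), and Dnajc21, which takes part in making the large ribosomal subunit, was called higher at 0.42 ± 0.12 (SE).

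In wildtype mice the called members other than Hspa1a, Hspa1b, Hspa2, Hspa12a and Dnajc14 were Dnajb13 and Hspa13, which fell, and Dnajc16, Dnajc5b and Hspb11, which rose. Dnajb13, a J-domain protein of the radial spokes of cilia and sperm tails, held -0.01, 0.28 and -0.31 in IFNAR-/- day 14 mice, -0.49, -0.52 and -0.17 in wildtype day 14 mice, -0.24, -0.01 and 0.22 in IFNAR-/- day 7 mice and 1.09, 0.21 and 0.90 in wildtype day 7 mice. Wildtype day 7 mice 1 and 3 were the high ones, and it fell by 1.13 in wildtype mice (SE 0.23, limma adjusted p = 0.0143). The median of the ciliated cell list was 0.84 in IFNAR-/- day 7 mouse 3, 0.43 in wildtype day 7 mouse 1 and between -0.18 and 0.08 in the 10 others. Wildtype day 7 mouse 3, which was high for Dnajb13, was at -0.18 for that list. Hspa13, an HSP70 relative of the microsomes, fell by 1.09 in wildtype mice (SE 0.27, limma adjusted p = 0.0320).

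Dnajc16 held -0.12, -0.01 and 0.09 in IFNAR-/- day 14 mice, 0.33, 0.38 and 0.38 in wildtype day 14 mice, -0.33, -0.05 and -0.15 in IFNAR-/- day 7 mice and -0.08, -0.06 and -0.15 in wildtype day 7 mice. The wildtype day 14 mice lay above the 9 others. It rose by 0.46 ± 0.10 at day 14 in wildtype mice (SE, limma adjusted p = 0.0173), and at day 14 IFNAR-/- mice were lower by a difference of -0.38 that just missed, at limma adjusted p = 0.0516. Dnajc5b, a relative of the cysteine string protein of secretory vesicles, rose by 0.47 ± 0.12, and Hspb11, a subunit of the transport particles inside cilia, by 0.50 ± 0.13 (SE). The 2 probe sets of Hspb11 differed. The rising probe set held 0.652 to 0.832 in wildtype day 14 mice and -0.542 to -0.037 in wildtype day 7 mice. The other overlapped between those days. The largest positive difference with time in IFNAR-/- mice was that of Dnajc15, of the mitochondrial inner membrane, which did not pass. It held 0.02, -0.05 and -0.08 in IFNAR-/- day 14 mice, 0.21, 0.02 and 0.53 in wildtype day 14 mice, -0.96, -0.32 and -0.75 in IFNAR-/- day 7 mice and -0.53, 0.34 and 0.32 in wildtype day 7 mice, a difference of 0.63 ± 0.24 in IFNAR-/- mice (SE, limma adjusted p = 0.105).

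These counts depended on single mice. Leaving out 1 mouse at a time gave 1 to 12 called members in wildtype mice and 4 to 9 in IFNAR-/- mice. The share of all genes called moved too, between 3.94% and 11.9% in wildtype mice and between 6.01% and 13.9% in IFNAR-/- mice. The wildtype count was 1 without day 14 mouse 3 or without day 7 mouse 1, 2 without day 14 mouse 2, 4 without day 14 mouse 1 or day 7 mouse 2, and 5 without day 7 mouse 3. In these fits 3.94% to 5.99% of all genes passed, against 7.98% with every mouse kept. The IFNAR-/- count was 4 without day 7 mouse 1 and 5 without day 14 mouse 2, where 6.01% and 7.89% of all genes passed, against 12.3%. Adjusted for the 5' over 3' signal 0 members passed in wildtype mice, where 0.846% of all genes did, and 7 passed in IFNAR-/- mice, where 9.06% did. The wildtype differences in that fit were -1.35 for Dnajb13, -0.98 for Hspa2, -0.93 for Hspa13, -0.88 for Dnajc14, -0.56 for Hspa12a, 0.39 for Dnajc16, 0.51 for Hspb11 and 0.53 for Dnajc5b. All 8 kept their direction, and their SEs lay between 0.13 and 0.37, against 0.10 to 0.27 without the adjustment.

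**Figure D4:**
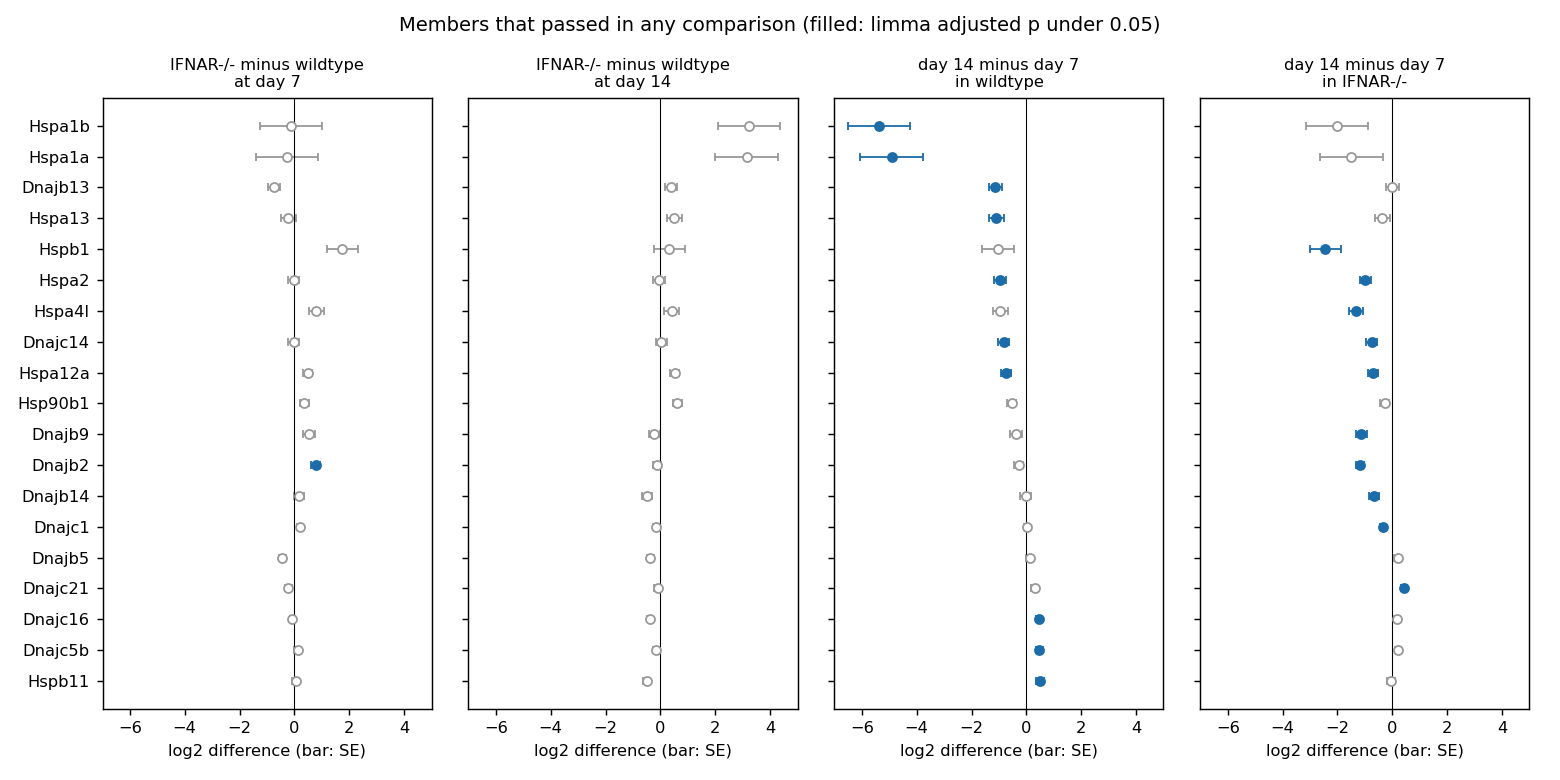
Log2 differences with their SE for the 19 members that passed in any comparison, in 4 of the 6 comparisons (filled: limma adjusted p under 0.05); Dnajb5, Hsp90b1 and Hspa12a passed for the mean over both days, which is not drawn. Hspa1a and Hspa1b carry the widest bars, and the only filled point between genotypes is Dnajb2 at day 7.

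Between genotypes few members were called. At day 7 1 of the 71 passed, Dnajb2, where 2.64% of all genes did, 1.29% higher and 1.35% lower, and 11 had an unadjusted p under 0.05. Dnajb2 was higher in IFNAR-/- mice by 0.77 ± 0.16 (SE, limma adjusted p = 0.0271), with every IFNAR-/- mouse above every wildtype mouse. This call was lost when any 1 of the 6 day 7 mice was left out. The change of its genotype difference between the days was -0.90 ± 0.22 (SE), with limma adjusted p = 0.0592. Arrays of the genotypes did not overlap in 9 members higher and 3 lower at day 7, against 12.4% and 11.6% of all genes. The lowest difference at day 7 was that of Dnajb13, -0.74 ± 0.23 (SE, limma adjusted p = 0.132).

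At day 14 0 of the 71 members passed by limma, where 5.04% of all genes did, and 18 had an unadjusted p under 0.05. Arrays did not overlap in 8 members higher and 6 lower in IFNAR-/- mice, against 10.2% and 13.3% of all genes. After Hspa1b and Hspa1a the furthest from 0 on the other side was Dnajc12, a co-chaperone of aromatic amino acid hydroxylases. It held -0.22, -0.53 and -0.34 in IFNAR-/- day 14 mice, 0.16, 0.13 and 0.20 in wildtype day 14 mice, 0.00, 0.06 and -0.40 in IFNAR-/- day 7 mice and 0.01, 0.26 and -0.29 in wildtype day 7 mice, a difference of -0.52 ± 0.16 at day 14 (SE, limma adjusted p = 0.0865). Without IFNAR-/- day 14 mouse 2, 6 members passed: Hspa1a, Hspa1b, Hspa4l, Hspa13 and Hsp90b1 were higher and Dnajc17 lower in IFNAR-/- mice, where 4.36% of all genes passed. Hspa13 was then higher by 0.89 ± 0.16, Hspa4l by 0.81 ± 0.15 and Hsp90b1 by 0.76 ± 0.15 (SE), with limma adjusted p = 0.0175, 0.0184 and 0.0245. Dnajc17, whose difference was then -0.50, was named after its values were seen.

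For the mean over both days 3 members passed, where 4.19% of all genes did. Hsp90b1, the HSP90 of the endoplasmic reticulum, which folds Toll-like receptors and integrins, held 0.25, -0.21 and 0.28 in IFNAR-/- day 14 mice, -0.68, -0.31 and -0.52 in wildtype day 14 mice, 0.54, 0.11 and 0.49 in IFNAR-/- day 7 mice and -0.10, 0.05 and 0.14 in wildtype day 7 mice. The genotypes did not overlap at day 14, and at day 7 IFNAR-/- mouse 2 lay below wildtype mouse 3. Of its 2 probe sets, 1 overlapped between genotypes at day 14 but not at day 7. At day 7 it held 0.203 to 0.507 in IFNAR-/- against -0.028 to 0.132 in wildtype mice. The other overlapped at day 7 but not at day 14, where it held -0.095 to 0.688 against -1.127 to -0.419. Averaged per gene, Hsp90b1 was higher in IFNAR-/- mice by 0.48 ± 0.12 (SE, limma adjusted p = 0.0436), and Hspa12a was higher by 0.50 ± 0.12 (SE, limma adjusted p = 0.0461). Dnajb5, a J-domain protein of the cytosol, held -0.08, 0.04 and -0.12 in IFNAR-/- day 14 mice, 0.05, 0.37 and 0.52 in wildtype day 14 mice, -0.19, -0.23 and -0.31 in IFNAR-/- day 7 mice and 0.27, 0.17 and 0.16 in wildtype day 7 mice. Arrays of the genotypes did not overlap on either day in 1 member higher in IFNAR-/- mice, Hspb1, and in 1 lower, Dnajb5, against 1.32% and 2.05% of all genes. Dnajb5 had a difference of -0.40 ± 0.08 (SE, limma adjusted p = 0.0234). All 3 of its probe sets were lower without overlap at day 7. At day 14 only 1 was, with -0.392 to -0.114 in IFNAR-/- against -0.009 to 1.112 in wildtype mice. The others overlapped. Of these, 1 went the other way, with 0.103, -0.025 and 0.234 in IFNAR-/- against -0.480, 0.119 and -0.017 in wildtype mice. Of the 2 probe sets of Hspb1, 1 overlapped between genotypes at day 14. Of the 12 mice, leaving out any of 10 ended the calls of Hsp90b1 and of Hspa12a, and leaving out any of 6 ended that of Dnajb5. The lowest difference was that of Dnajc15, -0.50 ± 0.17, which did not pass at limma adjusted p = 0.136. The change of the genotype difference between the days was called by limma in 0 members, where 2.48% of all genes were called, and 8 members had an unadjusted p under 0.05.

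A further 39 members, Dnajb6 and Dnajc17 among them, passed in none of the 6 comparisons. Their differences between genotypes and between days lay between -0.55, for Dnajb4 with time in IFNAR-/- mice, and 0.46, for Dnajc24 with time in wildtype mice, and their lowest limma adjusted p was 0.0636. They include Hspa9, the HSP70 of mitochondria, Hspa4, an HSP110 protein, Dnajb11 and Dnajc3, J-domain proteins of the endoplasmic reticulum lumen, and Dnajc5, the cysteine string protein. The 2 remaining HSP70 genes, Hspa9 and Hspa14, lay between -0.16 and 0.26, and the 6 remaining small heat shock proteins between -0.54, for Hspb6 with time in wildtype mice, and 0.20. The 19 remaining DNAJC genes lay between -0.51 and 0.46. The median SD between mice of these 39 was 0.185.

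Other genes of the chaperone network were read from lists. Of 31 heat shock factors and co-chaperones 28 were measured. At day 7 1 was called higher in IFNAR-/- mice and 0 lower, against 1.29% and 1.35% of all genes. At day 14 it was 1 higher and 0 lower, against 1.75% and 3.29%. For the mean over both days it was 3 higher and 0 lower, against 1.70% and 2.49%. Fkbp5, an HSP90 co-chaperone that glucocorticoids induce, held 0.12, 0.08 and -0.12 in IFNAR-/- day 14 mice, -0.36, 0.25 and 0.17 in wildtype day 14 mice, 1.46, 1.24 and 1.39 in IFNAR-/- day 7 mice and -0.08, -0.38 and 0.02 in wildtype day 7 mice. Its day 7 difference was 1.51 ± 0.17 (SE, limma adjusted p = 0.000868), and the change of that difference by day 14, -1.51 ± 0.23 (SE), was called too, at limma adjusted p = 0.0119. Hyou1, an HSP110-like protein of the endoplasmic reticulum, was higher in IFNAR-/- mice at day 14 by 1.04 ± 0.21 (SE, limma adjusted p = 0.0203), with 0.33, -0.36 and 0.36 in IFNAR-/- mice against -1.10, -0.59 and -1.08 in wildtype mice. Stip1, which hands proteins from HSP70 to HSP90, was higher over both days by 0.56 ± 0.12 (SE, limma adjusted p = 0.0258). With time 0 of the 28 rose and 3 fell in IFNAR-/- mice, where 4.08% and 8.24% of all genes did: Fkbp5 fell by 1.34, Bag4 by 0.75 and Dedd2 by 0.68. In wildtype mice 1 rose and 2 fell, where 3.88% and 4.10% of all genes did.

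All 14 genes of the cytosolic chaperonin and of prefoldin, which passes new actin and tubulin to it, were measured. None of the 8 chaperonin subunits passed in any of the 6 comparisons, in each of which between 2.48% and 12.3% of all genes were called, and 5 prefoldin subunits passed in at least 1. Pfdn1 held -0.95, -0.74 and -1.06 in IFNAR-/- day 7 mice against -0.03, 0.00 and -0.00 in wildtype day 7 mice, a difference of -0.91 ± 0.17 (SE, limma adjusted p = 0.0205). At day 14 Pfdn2 and Vbp1 were lower in IFNAR-/- mice, by differences of -0.61 ± 0.11 and -0.58 ± 0.10 (SE), at limma adjusted p = 0.0128 and 0.0130. In wildtype mice 13 of the 14 differences with time were above 0, with a median of 0.26, and Pfdn4 and Pfdn6 were called higher. Pfdn1 and Pfdn4 were called higher and Pfdn2 lower at day 14 than at day 7 in IFNAR-/- mice. Pfdn1 and Vbp1 were called lower for the mean over both days, and Pfdn2 for the change of the genotype difference.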

How the data were processed

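Values are linear ratios per probe set, deposited by the authors after RMA (background correction, normalisation and summary of probes), per the submitters' processing notes. The division by about each probe set's median over the 12 arrays was read from the values, which lay within 0.02 of 1 at that median in 100% of the 45101 probe sets. Ratios keep neither level nor signal over background, and precision is limited by the number of arrays. From these deposited ratios log2 values were taken and averaged per gene over the 34945 probe sets with 1 symbol. The 932 with several symbols, 9160 with none and 64 controls were left out of the tests.

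A model with 1 mean for each of 4 groups was fitted to all 18193 genes with limma 3.58.1 in R 4.3.3 (two-sided, Benjamini-Hochberg, threshold 0.05), after tests on simulated data. Mice are separate animals, so the mouse number was a block only in an alternative. Alternatives were other normalisations, probe set rules, a filter on SD, priors, array weights, arrays left out and adjustment for the 5' over 3' signal. Members and lists were chosen with earlier results of these data known. Values on every array are given for called members (12 with the lowest p), 10 inducible members, the most and least variable, and the extremes of each comparison.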

Additional observations from a re-analysis of the deposited data

How the results depend on the processing

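The number of called members was the least stable result. With array weights it was 13 between genotypes at day 7, 12 at day 14, 15 for the mean over both days, 16 with time in wildtype mice, 21 with time in IFNAR-/- mice and 5 for the change of the genotype difference, against 1, 0, 3, 10, 10 and 0. In the same order 10.3%, 10.4%, 12.2%, 14.8%, 25.2% and 9.7% of all genes were called with array weights. The main fit called 2.64%, 5.04%, 4.19%, 7.98%, 12.3% and 2.48% of all genes. Adjusted for the 5' over 3' signal the member count was 0 at day 7, 0 for the mean and 0 with time in wildtype mice, where 1.79%, 2.71% and 0.846% of all genes passed. A fit of only the arrays compared gave 2 at day 7 and 3 with time in IFNAR-/- mice, where fewer samples enter, and is no other fit for the mean and the change. Of all genes that fit called 1.74% and 6.35%. Without both IFNAR-/- day 7 mouse 3 and IFNAR-/- day 14 mouse 2 the member count was 3 at day 7, 7 at day 14, 5 for the mean and 1 for the change. Of all genes 3.03%, 5.12%, 4.6% and 3.18% passed there. Without both IFNAR-/- day 7 mouse 3 and wildtype day 7 mouse 1 the member count was 1 for the mean and 1 with time in wildtype mice, where 2.07% and 4.51% of all genes passed. At day 14 quantile normalization gave 1, subtraction of the array median 1, the probe set with the largest SD 3 and the trended and robust prior 3. In the same order 4.05%, 5.06%, 6.9% and 4.51% of all genes passed. Quantile normalization gave 1 for the mean (3.63% of all genes), and the probe set with the largest SD gave 1 for the change (2.84% of all genes) and a median SD of 0.289. Leaving out 1 array gave 0 to 2 at day 7, 0 to 6 at day 14, 0 to 5 for the mean, 1 to 12 in wildtype mice, 4 to 9 in IFNAR-/- mice and 0 to 1 for the change. In the same order the share of all genes called was 1.15% to 3.86%, 2.11% to 5.02%, 2.07% to 5.7%, 3.94% to 11.9%, 6.01% to 13.9% and 0.759% to 2.67%. The cause was not tested.

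The mouse numbers do not pair the animals: 2 of 12 same-numbered pairs correlated above 0.1, with a range of -0.397 to 0.232. The replicate block left 1 member called for the mean over both days in place of 3, and 8 and 9 with time in wildtype and IFNAR-/- mice. In the same order 3.39%, 6.75% and 10.9% of all genes passed.

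Of the 24 calls of a member in a comparison, 3 passed whichever array was left out, 2 passed in every alternative, and 0 changed direction. Uncalled differences near 0 did change sign. Hspa1a at day 7 was 0.73 with array weights, 0.20 and 0.17 without both arrays of each pair, 0.03 with that adjustment, and -1.13 to 0.45 with 1 array left out. Hspa1b at day 7 was 0.82, 0.32, 0.31 and 0.24 in the same fits, 0.07 after quantile normalization, and -0.93 to 0.56 with 1 array left out. Dnaja1 at day 14 was 0.15 after quantile normalization, 0.25 with array weights, 0.32 without both IFNAR-/- day 7 mouse 3 and IFNAR-/- day 14 mouse 2, and -0.20 to 0.32 with 1 array left out. Quantile normalization gave 0.22 for Hsph1 with time in wildtype mice (-0.20 to 0.20 with 1 array left out), 0.11 in IFNAR-/- mice (-0.51 to 0.06), and 0.07 for Hsp90aa1 in IFNAR-/- mice (-0.16 to 0.07).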
